A study of Mus musculus with 10 samples.

Results

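The 10 genes described here act in, or are switched on by, the ATF4 branch of the stress response to unfolded protein and amino acid shortage: Atf4, Ddit3, Trib3, Asns, Chac1, Sesn2, Psat1, Phgdh, Slc7a11 and Slc3a2. They were chosen by symbol, with earlier results of these data known. All 10 of them were found among the 23230 features of the expression matrix. The matrix gives FPKM (fragment counts scaled to transcript length and library size) for 10 mouse RNA-seq libraries. The study asked how epigenetically silenced genes shape glioma, and its libraries come from a culture model of that tumour.

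All 10 libraries share the same starting cells, astrocytes from the cerebral cortex of C57BL/6 pups at postnatal day 5 that lack p16/p19 (Ink4a/Arf) and carry a retroviral vector for EGFR*, the truncated human receptor EGFRvIII. AstroEGFR* libraries 1, 2 and 3 are 3 batches of these cells before transplantation. PT1, PT2, PT3 and PT4 are glioma propagating cells grown out of tumours that such cells formed in CD1 Nude mice, hosts without mature T cells. PT1, PT2 and PT3 derive from batches 1, 2 and 3, and PT4 is placed in batch 1 from a figure of the study, since its label names no batch. AstroEGFR* Zfp423 libraries 1, 2 and 3 are the 3 batches carrying in addition a vector for Zfp423, a zinc finger transcription factor. The AstroEGFR* cultures were grown with fetal bovine serum and the PT cultures without serum on laminin, so the tumour step and the medium cannot be told apart in their comparison. No library came from cells without EGFR* or with Ink4a/Arf intact.

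In the integrated stress response, kinases that sense unfolded protein (PERK), uncharged tRNA (GCN2), viral RNA (PKR) or lack of haem (HRI) phosphorylate the translation factor eIF2. General translation then falls while the Atf4 mRNA is translated more, so that the Atf4 mRNA level, which is what RNA-seq measures, reports only a part of ATF4 activity. ATF4 protein pairs with C/EBP and other basic leucine zipper factors and raises genes for amino acid synthesis, amino acid transport and tRNA charging, along with its own feedback inhibitors. In gliomas and other fast growing tumours this programme is known for feeding glutathione, serine and asparagine synthesis.

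Before any gene is considered, several libraries stood apart. The astrocyte marker genes were read at 1 FPKM or more for 6 to 9 of 9 in each library, but their summed level was 211 and 64.5 FPKM in AstroEGFR*1 and AstroEGFR*2 Zfp423, against 377 to 1085 FPKM in the other libraries. By the spacing of its lowest values AstroEGFR*3 had 0.0693 of the depth of PT1 by way of the other libraries. Read against PT1 itself it had 0.0726, from only 6 features. The other libraries apart from PT3 had 0.503 to 0.981 of the depth of PT1. The depth of PT3 is unsure, at 0.470 from 5 features read against PT1 itself and at 0.0915 by way of the other libraries. Small non-coding RNA and histone features took 35.8, 36.1 and 54.8% of the summed FPKM in the Zfp423 libraries, 29.7% in AstroEGFR*2 and 34.4% in PT2, and 0.801 to 6.12% in the others. Microglial markers summed to 1473 FPKM in AstroEGFR*1 Zfp423 and 842 FPKM in AstroEGFR*2 Zfp423, with 8 of 8 of them at 1 FPKM or more in each, and to no more than 11.3 FPKM in the other libraries. Fibroblast markers summed to 5072 FPKM in AstroEGFR*3, 4449 in AstroEGFR*1 Zfp423 and 6183 in AstroEGFR*2 Zfp423, against 222 to 482 in AstroEGFR*1, AstroEGFR*2, PT3 and AstroEGFR*3 Zfp423 and 0.901 to 32.8 in PT1, PT2 and PT4. Oligodendrocyte lineage markers summed to 1357 FPKM in PT1 and 1689 in PT4, against 38.3 to 223 in the rest. Zfp423 itself reached 15.7, 9.73 and 105 FPKM in the 3 cultures with its vector, in batch order, and was at no more than 4.30 FPKM in the other 7 libraries, so the third of these cultures carried much more of the transcript. Cdkn2a, the Ink4a/Arf locus, was read at 3.96 to 130 FPKM, and values per gene do not show which exons these fragments came from, so they do not check the deletion. In bulk RNA, fewer cells of a type and less RNA per cell cannot be told apart.

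All 10 genes were on average higher in PT than in AstroEGFR* cells and in AstroEGFR* Zfp423 than in AstroEGFR* cells, and none passed the test across all features in either comparison. The libraries of a group were far apart for these genes. PT1 was the lowest of the 4 PT libraries for 10 of 10 genes (21.1% of 12476 features averaging 1 FPKM or more). AstroEGFR*1 Zfp423 was the lowest of its group for 10 of 10 (29.7% of these features). PT2 and PT3 were both above every AstroEGFR* library for 9 of 10 genes (19.9% of features). The same held for AstroEGFR*2 and AstroEGFR*3 Zfp423 in 8 of 10 (13.6% of features). The genes with the widest range were Slc7a11, with 160-fold between its highest and lowest library, Trib3 with 62.6-fold and Ddit3 with 46.7-fold, and the narrowest was Psat1 with 4.18-fold.

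**Figure D1:**
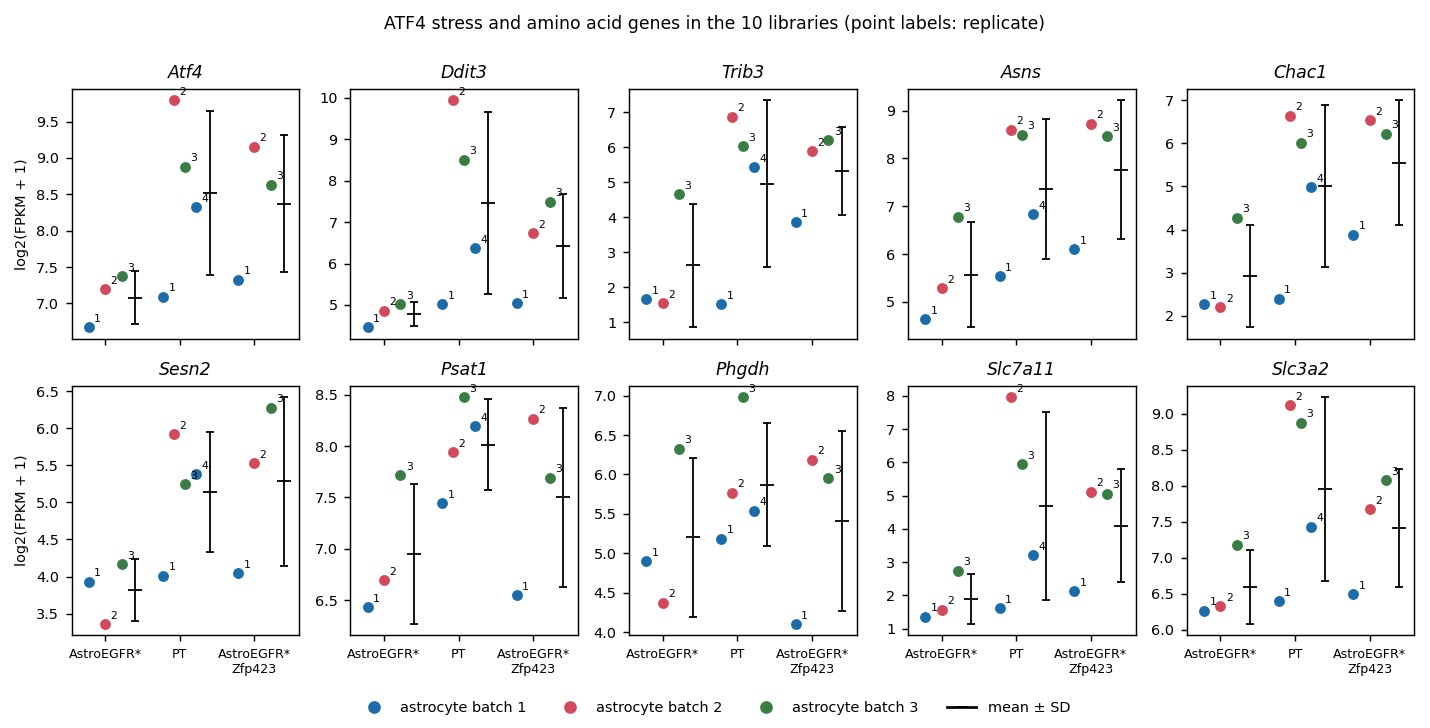
log2(FPKM + 1) of each of the 10 genes (vertical axes, each panel with its own range) in AstroEGFR*, PT and AstroEGFR* Zfp423 libraries (horizontal axis); points are libraries numbered by replicate and coloured by astrocyte batch, and black bars are the group mean ± SD. In every panel PT1 is the lowest PT library and AstroEGFR*3 is the highest AstroEGFR* library.

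Atf4, the transcription factor at the head of this programme, stood at 101, 146 and 165 FPKM in the AstroEGFR* libraries (1, 2 and 3, here and below in that order). In PT1 through PT4 it reached 136, 885, 469 and 320 FPKM. In the AstroEGFR* Zfp423 libraries, again numbered 1 to 3, it reached 160, 570 and 396 FPKM. PT1 lay inside the AstroEGFR* range and the other 3 PT libraries lay above it, and the same held for AstroEGFR*1 Zfp423 against the other 2 of its group. On the log2(FPKM + 1) scale used for all means, SDs and fold changes here, the level was 7.08 ± 0.37 (SD, n = 3) for the AstroEGFR* libraries, 8.52 ± 1.13 (SD, n = 4) for PT and 8.37 ± 0.94 (SD, n = 3) in AstroEGFR* Zfp423.

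Ddit3 encodes CHOP, a C/EBP family factor that ATF4 raises and that is known for promoting cell death under lasting stress. Its level was 21.0, 28.1 and 31.5 FPKM in the AstroEGFR* libraries, 31.5, 981, 363 and 82.1 FPKM from PT1 through PT4, and 31.9, 105 and 179 FPKM in the AstroEGFR* Zfp423 libraries. The AstroEGFR* libraries were close together, at 4.78 ± 0.29 (SD, n = 3, log2), while PT spread over 7.46 ± 2.19 (SD, n = 4, log2). The ratio of Ddit3 to Atf4 FPKM was 0.191 to 0.208 in the 3 AstroEGFR* libraries, 0.232 in PT1 and 0.257 in PT4. It was 1.11 in PT2 and 0.774 in PT3, where Ddit3 was above or near the level of Atf4 itself, and 0.200, 0.185 and 0.453 in AstroEGFR*1, AstroEGFR*2 and AstroEGFR*3 Zfp423.

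Trib3 encodes a pseudokinase induced by ATF4 and CHOP that binds ATF4 and AKT and damps the response. It stood at 2.18, 1.93 and 24.4 FPKM in the AstroEGFR* libraries, at 1.86, 117, 64.4 and 42.5 FPKM from PT1 through PT4, and at 13.6, 58.7 and 72.9 FPKM in the AstroEGFR* Zfp423 libraries. PT1 and the first 2 AstroEGFR* libraries were near 2 FPKM, while AstroEGFR*3 was above AstroEGFR*1 Zfp423. Trib3 was thus also the least even of the 10 genes within AstroEGFR*, at 2.63 ± 1.77 (SD, n = 3, log2), and PT1 was below its own batch in it (0.854 of the FPKM of AstroEGFR*1). The C/EBP-ATF response element, searched as TGATGNAA on both strands, lay just after the start of Trib3, in bases 15 to 22 of the transcript. It is shown for its position, with the match in capitals, in the reverse orientation, on RefSeq's GRCm38.p6 at chr2:152344029-152344056, minus strand.
Trib3: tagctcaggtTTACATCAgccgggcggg

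Sesn2 encodes a stress-induced leucine sensor that restrains mTORC1. Its level was 14.2, 9.28 and 17.0 FPKM in the AstroEGFR* libraries, 15.1, 59.6, 37.0 and 40.6 FPKM from PT1 through PT4, and 15.5, 45.1 and 76.6 FPKM in the AstroEGFR* Zfp423 libraries. PT1 and AstroEGFR*1 Zfp423 were inside the AstroEGFR* range. The other 3 PT libraries, from 37.0 to 59.6 FPKM, were above all of AstroEGFR*, as were the other 2 Zfp423 libraries.

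Chac1 encodes an enzyme that degrades glutathione. It was at 3.83, 3.59 and 18.4 FPKM in the AstroEGFR* libraries, at 4.28, 98.8, 63.4 and 30.6 FPKM from PT1 through PT4, and at 13.8, 91.4 and 73.5 FPKM in the AstroEGFR* Zfp423 libraries. Its pattern was that of Trib3, with PT1 near AstroEGFR*1 and AstroEGFR*2, and with AstroEGFR*3 above AstroEGFR*1 Zfp423. The 250 bases before its RefSeq start, chr2:119350992-119351241 on the plus strand of GRCm38.p6, are shown because the only match to TGATGNAA in them, in capitals, lies 193 to 186 bases before the start, farther out than in the other genes, and in the reverse orientation.
Chac1: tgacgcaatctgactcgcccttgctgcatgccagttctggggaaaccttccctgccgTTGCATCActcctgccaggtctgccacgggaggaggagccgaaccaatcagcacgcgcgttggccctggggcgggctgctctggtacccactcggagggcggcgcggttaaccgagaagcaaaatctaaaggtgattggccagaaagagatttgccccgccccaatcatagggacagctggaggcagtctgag

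Among the genes of amino acid synthesis, Asns, the enzyme that makes asparagine from aspartate and glutamine, was higher than in AstroEGFR* in every batch. It stood at 23.9, 38.1 and 109 FPKM in the AstroEGFR* libraries, at 45.5, 388, 359 and 113 FPKM from PT1 through PT4, and at 68.0, 424 and 353 FPKM in the AstroEGFR* Zfp423 libraries. Every library was above the AstroEGFR* library of its own batch, with FPKM ratios from 1.91 in PT1 to 11.1 in AstroEGFR*2 Zfp423. PT4 and AstroEGFR*3 did not stand apart, at 113 and 109 FPKM. The 250 bases before its start, chr6:7693210-7693459 on the minus strand of GRCm38.p6, are shown because they carry TGATGNAA, in capitals, 23 to 16 bases before the start, the nearest upstream match among the 10 genes.
Asns: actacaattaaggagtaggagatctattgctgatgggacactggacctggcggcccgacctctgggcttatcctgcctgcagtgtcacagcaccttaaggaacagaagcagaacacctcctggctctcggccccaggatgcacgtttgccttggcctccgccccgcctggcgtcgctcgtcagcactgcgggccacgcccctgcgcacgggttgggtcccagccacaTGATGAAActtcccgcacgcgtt

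Phgdh, the enzyme of the opening step of serine synthesis from glycolytic 3-phosphoglycerate, had the smallest difference of the 10 genes in both comparisons. It was at 28.9, 19.8 and 79.4 FPKM in the AstroEGFR* libraries, at 35.4, 53.6, 125 and 45.6 FPKM from PT1 through PT4, and at 16.2, 72.0 and 60.8 FPKM in the AstroEGFR* Zfp423 libraries. AstroEGFR*3 was above every library but PT3, and the 3 groups overlapped throughout. Psat1, which acts next in the same pathway and transfers an amino group from glutamate, was at 85.2, 103 and 210 FPKM in the AstroEGFR* libraries, 173, 245, 356 and 293 FPKM from PT1 through PT4, and 92.5, 307 and 206 FPKM in the AstroEGFR* Zfp423 libraries. For both genes PT3 was the highest PT library, in place of PT2, which was the highest PT library for the other 8 genes. The log2 level of Psat1 was 6.95 ± 0.68 (SD, n = 3) before transplantation and 8.02 ± 0.44 (SD, n = 4) after it, and PT2 to PT4 all exceeded AstroEGFR*3.

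Slc7a11 and Slc3a2 encode the light and the heavy chain of system xc-, which takes up cystine for glutathione synthesis and releases glutamate; the heavy chain also serves the leucine transporter Slc7a5 and others. Slc7a11 was at 1.56, 1.97 and 5.71 FPKM in the AstroEGFR* libraries, at 2.07, 249, 60.7 and 8.28 FPKM from PT1 through PT4, and at 3.37, 33.8 and 32.2 FPKM in the AstroEGFR* Zfp423 libraries. PT2 was the highest of all libraries and PT3 the next. Slc3a2 was at 76.0, 79.5 and 144 FPKM in the AstroEGFR* libraries, at 83.5, 554, 468 and 172 FPKM from PT1 through PT4, and at 89.0, 204 and 269 FPKM in the AstroEGFR* Zfp423 libraries. The order of libraries was thus similar in both chains but the size was not. The heavy chain exceeded the light chain in FPKM by 48.9, 40.4 and 25.3 times in the AstroEGFR* libraries and by 40.4 times in PT1. In PT2, PT3 and PT4 the ratio was 2.23, 7.71 and 20.7, and in AstroEGFR*1, AstroEGFR*2 and AstroEGFR*3 Zfp423 it was 26.4, 6.03 and 8.34. The 250 bases before the start of Slc7a11, chr3:50443614-50443863 on the minus strand of GRCm38.p6, are shown because it was the only one of the 10 genes with a pair of matches to TGATGNAA, in capitals, 66 to 59 and 47 to 40 bases before the start and in opposite orientations.
Slc7a11: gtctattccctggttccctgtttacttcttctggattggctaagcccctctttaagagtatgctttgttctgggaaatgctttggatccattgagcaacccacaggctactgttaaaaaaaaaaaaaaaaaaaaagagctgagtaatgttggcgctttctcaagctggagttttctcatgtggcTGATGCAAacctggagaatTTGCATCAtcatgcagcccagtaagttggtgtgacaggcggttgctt

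TGATGNAA on either strand was found in the windows of 4 of the 10 genes (Asns, Chac1, Slc7a11 and Trib3), and in 1303 of 32817 RefSeq mouse windows of 300 bases (3.97%), each from 250 bases before to 50 bases after a start. All 10 genes had a window, Psat1 with 2. The antioxidant response element that NRF2 binds, searched as TGACNNNGC on both strands, was found for Asns, Phgdh and Sesn2 and in 12.4% of all windows. The sites of the pair of motifs did not overlap. A match says that these letters are present, and no match says only that they are not in this window. The 4 genes with a TGATGNAA match included the widest and the second widest range over the libraries, Slc7a11 and Trib3, and Ddit3, the third widest, had none.

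The question of the main comparison is how the cells that came out of the tumours differ from those that went in. Between PT and AstroEGFR*, limma with Benjamini-Hochberg adjustment called 152 of 12261 features tested (1.24%), of which 39 were higher in PT (0.318%). None of the 10 genes was called (adjusted p 0.263 to 0.685). All 10 had a positive log2 fold change, from 0.67 for Phgdh to 2.80 for Slc7a11, with a median of 1.62, against a median of 0.03 over all features tested, of which 52.1% were higher. At an unadjusted p below 0.05, 4 of the 10 genes were higher in PT (Atf4, Ddit3, Sesn2 and Psat1), against 5.88% of the features (13.6% in either direction). With the astrocyte batch as a block, 475 features were called (3.87%; higher in PT 1.19%), none of them one of the 10 (limma adjusted p 0.0725 to 0.223), and 9 of the 10 had an unadjusted p below 0.05, against 13.2% of features. The 5 fibroblast markers were on average lower in PT (median -3.73, log2). Without the block 4 of 5 were lower at an unadjusted p below 0.05 (7.69% of features). With the block 2 of the 5 were called lower (2.68% of features). The part of this fall in the 10 genes was not tested.

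The fold change with the smallest error was that of Psat1, 1.07 ± 0.40 (SE, log2; limma adjusted p = 0.308), and the largest error was that of Slc7a11, 2.80 ± 1.39 (SE, log2; limma adjusted p = 0.437). Atf4 itself differed by 1.44 ± 0.60 (SE, log2; limma adjusted p = 0.353). Sesn2 had the lowest adjusted p of the 10, 0.263 by limma, with a log2 fold change of 1.32 ± 0.46 (SE). For Ddit3 the difference was 2.68 ± 1.07, for Trib3 2.34 ± 1.34, for Chac1 2.09 ± 1.02, for Asns 1.80 ± 0.84, for Slc3a2 1.36 ± 0.68 and for Phgdh 0.67 ± 0.57 (SE, log2). An exact permutation test of each gene over the 7 libraries, two-sided, gave p from 0.0857 (Ddit3, Sesn2 and Psat1) to 0.343 (Phgdh). The smallest p that 4 against 3 libraries allow in this test is 0.0286. It treats the libraries as independent and ignores the batches, although PT1 and PT4 were both placed in batch 1. For none of the 10 genes was every PT library above every AstroEGFR* library, a pattern seen in 6.95% of features. PT1 was below AstroEGFR*3 in all 10 genes, as in 49.6% of the 12476 features that averaged 1 FPKM or more in the 10 libraries, while PT4 was above every AstroEGFR* library in 9 of 10 (27.6% of features) and so were both PT2 and PT3 (19.9% of features). The exception was Phgdh in each case.

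**Figure D2:**
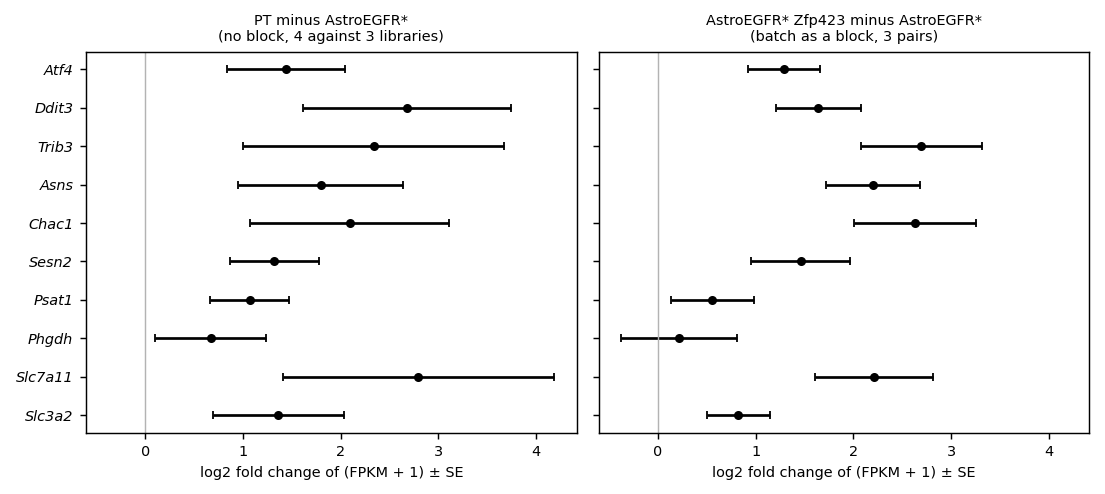
log2 fold change of FPKM + 1 (horizontal axes) with its standard error for the 10 genes (rows), for PT minus AstroEGFR* (left, 4 against 3 libraries) and AstroEGFR* Zfp423 minus AstroEGFR* (right, 3 pairs of a batch); both comparisons use the same AstroEGFR* libraries. All points lie above 0, from 0.67 to 2.80 on the left and from 0.21 to 2.70 on the right, and no adjusted p was below 0.05.

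Set against the AstroEGFR* library of the same batch, the difference was small in PT1 and large in PT2. PT1 had a median log2 difference of 0.27 over the 10 genes, PT2 of 3.05, PT3 of 1.60 and PT4 of 1.81, where all features had medians of -0.01 to 0.04. Trib3 in PT1 was the only value below 0. Each of the 4 PT libraries was above its own batch for 9 of the 10 genes, against 21.1% of features. In PT2 the FPKM of Slc7a11 was 127 times, that of Trib3 60.5 times, that of Ddit3 35 times and that of Chac1 27.5 times that of AstroEGFR*2, while Psat1 and Phgdh were at 2.39 and 2.71 times. In PT1 the largest ratios were 2.03 for Psat1 and 1.91 for Asns, and Chac1, Sesn2 and Slc3a2 were at 1.12, 1.06 and 1.10 times the level in AstroEGFR*1.

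PT1 and PT4, both placed in batch 1, differed in all 10 genes in the same direction. PT4 was above PT1 by 22.8-fold in FPKM for Trib3, 7.15-fold for Chac1, 4.01-fold for Slc7a11 and 2.36-fold for Atf4, and by 1.29-fold for Phgdh. The median log2 difference was 1.32 over the 10 genes and 0.00 over all features, of which 48.5% were higher in PT4. These are single libraries, so there is no test of this difference. Both had the high oligodendrocyte lineage markers, and their depths were alike, at 0.981 for PT4 relative to PT1.

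**Figure D3:**
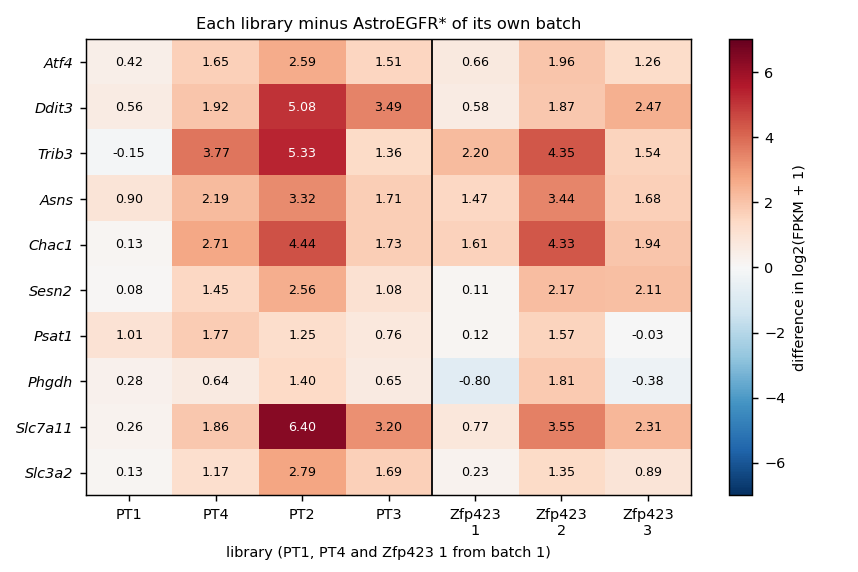
Difference in log2(FPKM + 1) between each PT or AstroEGFR* Zfp423 library (columns) and the AstroEGFR* library of the same astrocyte batch for the 10 genes (rows); red is higher and blue lower, and the value is printed in each cell. PT2 holds the largest difference, 6.40 for Slc7a11, and the cells below 0 are Trib3 in PT1, Phgdh in AstroEGFR*1 Zfp423 and both Phgdh and Psat1 in AstroEGFR*3 Zfp423.

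The second comparison asks what a vector for Zfp423 does to AstroEGFR* cells before transplantation. It uses the same AstroEGFR* libraries as the first. With the batch as a block, limma called 0 of 12366 features (0%) at an adjusted p below 0.05, and none of the 10 genes (adjusted p 0.628 to 0.931). At an unadjusted p below 0.05, 913 features passed (7.38%), 408 of them higher in the Zfp423 cells (3.3%), and 7 of the 10 genes were among these 408, all but Psat1, Phgdh and Slc3a2. Without the block, 2 features were called (0.0162%) and again none of the 10 (limma adjusted p 0.728 to 0.941). The median log2 fold change was 1.55 over the 10 genes and 0.02 over all features. The blocked fit rests on the labels' numbers. Over 12476 features, the deviations of same-numbered libraries from their group means had a correlation of 0.24 in batch 1, -0.11 in batch 2 and -0.26 in batch 3, against 0.40, 0.44 and 0.53 between AstroEGFR* and PT1, PT2 and PT3. AstroEGFR*3 and AstroEGFR*2 Zfp423 had 0.31, and AstroEGFR*2 and AstroEGFR*3 Zfp423 had 0.22. These correlations did not pair batches 2 and 3 by number. Fibroblast markers summed to 5072 FPKM in AstroEGFR*3 and 6183 FPKM in AstroEGFR*2 Zfp423. They summed to 482 FPKM in AstroEGFR*2 and 222 FPKM in AstroEGFR*3 Zfp423. The part of fibroblast RNA in these correlations was not tested. The transcript of the vector gene was at 15.7 FPKM in the library numbered 1 and 9.73 FPKM in number 2. It was highest in the library numbered 3, at 105 FPKM. By its own measure the study also reports much stronger overexpression of this gene in the batch of that last number. The within-batch values given below for the Zfp423 libraries use the numbers as labelled.

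Trib3 had the largest difference, 2.70 ± 0.62 (SE, log2; limma adjusted p = 0.628), followed by Chac1 at 2.63 ± 0.63, Slc7a11 at 2.21 ± 0.61 and Asns at 2.20 ± 0.48 (SE, log2). Ddit3 differed by 1.64 ± 0.43, Sesn2 by 1.46 ± 0.51, Atf4 by 1.29 ± 0.37 and Slc3a2 by 0.82 ± 0.32 (SE, log2). Those 8 genes were higher in all 3 batches, as were 16.3% of features. Psat1 (0.55 ± 0.43) and Phgdh (0.21 ± 0.59) were not, since AstroEGFR*3 Zfp423 was below AstroEGFR*3 in both (0.981 and 0.766 of its FPKM). Phgdh was also lower in AstroEGFR*1 Zfp423 (0.560 of AstroEGFR*1). Leaving out either library of batch 2 took Psat1 to 0.05 and Phgdh to -0.59 (log2). Ddit3 was the only one of the 10 genes in which every Zfp423 library was above every AstroEGFR* library (5.68% of features), with AstroEGFR*1 Zfp423 at 31.9 and AstroEGFR*3 at 31.5 FPKM. With 3 pairs the smallest p that exchanging labels within batches allows is 0.25, so no exact test of this comparison can pass 0.05.

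The size differed between the libraries. By the numbers as labelled, median log2 differences over the 10 genes were 0.62 in AstroEGFR*1 Zfp423, 2.06 in AstroEGFR*2 Zfp423 and 1.61 in AstroEGFR*3 Zfp423. In AstroEGFR*2 Zfp423 Trib3 was at 30.4 times, Chac1 at 25.5 times and Slc7a11 at 17.2 times the FPKM of AstroEGFR*2. AstroEGFR*1 Zfp423 had Atf4, Ddit3, Sesn2 and Slc3a2 at 1.58, 1.52, 1.09 and 1.17 times the level of its batch, but Trib3 at 6.25 and Chac1 at 3.59 times. All 9 astrocyte markers were lower with the Zfp423 vector on average (median log2 fold change -1.73, 4 of them at an unadjusted p below 0.05, against 4.08% of features), with a median log2 difference from the same batch of -1.48, -3.19 and -0.73 in AstroEGFR*1, AstroEGFR*2 and AstroEGFR*3 Zfp423. The part of this shift in the levels of the 10 genes was not tested. Rescaled without the small non-coding RNA and histone features, 10 of 10 kept a positive fold change. That refit is read here for direction only, and the part of the small RNA share in the sizes was not tested. All 8 microglial markers were at 1 FPKM or more in AstroEGFR*1 Zfp423 and AstroEGFR*2 Zfp423 (summed 1473 and 842 FPKM), and none was in AstroEGFR*3 Zfp423 (summed 0.0779 FPKM). The fibroblast markers summed to 4449, 6183 and 222 FPKM in these libraries, and in PT2 the microglial and fibroblast markers summed to 0.128 and 0.901 FPKM. The part of microglial or fibroblast RNA in the levels of the 10 genes was not tested.

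The other genes of the pathway were read from lists, and none of their genes was called in either comparison as tested above. Of 7 genes upstream of ATF4 (the eIF2 kinases, eIF2 alpha and the phosphatase subunits) 4 were higher in PT. The median of the 7 was 0.19 on the log2 scale, or -0.04 without AstroEGFR*1. The largest difference among them was that of Ppp1r15a, the inducible phosphatase subunit that ends the response and is itself an ATF4 and CHOP target, which was at 23.0, 19.7 and 12.3 FPKM in AstroEGFR* and 10.0, 201, 79.7 and 20.6 FPKM from PT1 through PT4 (1.24 ± 0.93, SE, log2; limma adjusted p = 0.63). Eif2ak4, which encodes the amino acid sensor GCN2, was the lowest at -0.54 ± 0.41 (SE, log2). Eif2ak3, which encodes PERK and was picked after its values were seen, was at 11.9 to 14.0 FPKM in AstroEGFR* and at 14.9, 36.0, 31.4 and 17.3 FPKM from PT1 through PT4, each PT library above each AstroEGFR* library.

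Of 11 further ATF4 effectors 10 were higher in PT, with a median of 2.21, or 1.12 without PT2. Ddit4, a stress- and hypoxia-induced inhibitor of mTORC1, was at 33.9, 10.4 and 38.8 FPKM in AstroEGFR* and at 306, 132, 98.4 and 247 FPKM from PT1 through PT4, with PT1 the highest. Its log2 fold change was 2.83 ± 0.56 (SE; limma adjusted p = 0.0666, with the batch block 0.0375; exact permutation p = 0.0286, the smallest possible). Stc2, a secreted glycoprotein, and Vldlr, a lipoprotein receptor, were chosen after their values were seen, since these and Ddit4 were the only 3 effectors called with the block. Stc2 was 2.50 ± 0.51 higher (SE, log2; limma adjusted p = 0.0702, with the block 0.0419) and Vldlr 2.42 ± 0.53 higher (limma adjusted p = 0.0879, with the block 0.0331). In these 3 genes, in contrast to the 10, PT1 was above all of AstroEGFR*. Nupr1, a stress-induced chromatin protein, was the effector with a negative value (-0.80 ± 1.05, SE, log2), with 147, 241 and 381 FPKM in AstroEGFR* and 31.8, 624, 352 and 47.8 FPKM from PT1 through PT4.

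Serine and one-carbon enzymes other than Phgdh and Psat1 were higher for 5 of 7, with a median of 0.87. Aldh1l2, which oxidises mitochondrial 10-formyltetrahydrofolate, was at 5.42, 4.17 and 27.6 FPKM in AstroEGFR* and 13.9, 297, 222 and 30.0 FPKM from PT1 through PT4 (2.92 ± 1.15, SE, log2; limma adjusted p = 0.327). Shmt2, the mitochondrial serine hydroxymethyltransferase, was the only one called with the block (1.31 ± 0.42, SE, log2; limma adjusted p = 0.227, with the block 0.0195), and was named after its values were seen. Mthfd1, the cytosolic enzyme of the same cycle, was at -0.52 ± 0.33 (SE, log2). Genes of proline, aspartate, alanine, cysteine and glutamine synthesis were higher for 7 of 8 (median 1.01), led by Gpt2, an alanine aminotransferase, at 2.05 ± 0.48 (SE, log2; limma adjusted p = 0.105), while Glul, glutamine synthetase, was at -1.04 ± 0.47. Of 8 amino acid transporters 7 were higher (median 0.73), from Slc7a1, a transporter of arginine and lysine, at 1.54 ± 0.47 (limma adjusted p = 0.191), to Slc7a3, of the same family, at -1.21 ± 0.74 (SE, log2). Of 20 cytosolic tRNA synthetases 17 were higher in PT (median 0.67), between Wars at 1.27 ± 0.52 and Dars at -0.31 ± 0.46 (SE, log2).

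Neighbouring stress pathways were read in the same way. Of 16 genes of endoplasmic reticulum chaperones and sensors 11 were higher in PT, with a median of 0.31 (0.11 without PT2 or PT3, 0.54 without PT1 and 0.58 without PT4), from Atf6, a membrane-bound sensor of unfolded protein, at 1.09 ± 0.60 to Dnajc3, the chaperone p58, at -0.43 ± 0.35 (SE, log2). Of 10 genes of the NRF2 and glutathione list 8 were higher, with a median of 0.32 (-0.06 without PT2, 0.14 without PT3, 0.58 without AstroEGFR*1, 0.63 without PT1 and 0.68 without PT4), from Srxn1, sulfiredoxin, at 1.17 ± 0.85 to Gss, glutathione synthetase, at -0.42 ± 0.45 (SE, log2). In PT2 alone, set against AstroEGFR*2, these lists had medians of 1.07 and 1.18 and the 10 ATF4 genes 3.05. In PT3 against AstroEGFR*3 the chaperones were at 0.45, the NRF2 list at 1.14 and the 10 ATF4 genes at 1.60, and in PT1 against AstroEGFR*1 the NRF2 list was at -0.47 and the 10 ATF4 genes at 0.27. In PT4 against AstroEGFR*1 the chaperones were at -0.25, the NRF2 list at -0.69 and the 10 ATF4 genes at 1.81.

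With the Zfp423 vector, 20 of 20 tRNA synthetases were higher (median log2 fold change 1.05), 11 of them at an unadjusted p below 0.05, against 3.3% of features. Without the block 3 of the 20 were, against 2.6% of features. Of the transporters 8 of 8 (median 0.84), of the serine and one-carbon enzymes 7 of 7 (median 1.08), of the effectors 9 of 11 (median 0.61) and of the amino acid synthesis genes 5 of 8 (median 1.03) were higher. Without AstroEGFR*2 or AstroEGFR*2 Zfp423 the medians were -0.30 for the effectors, 0.25 for the transporters, 0.57 for the serine and one-carbon enzymes and 0.45 for amino acid synthesis. The upstream genes had a median of 0.42, with 5 of 7 higher. The chaperones had a median of -0.15 (0.29 without AstroEGFR*3 or AstroEGFR*3 Zfp423) with 7 of 16 higher, and the NRF2 list had a median of -0.01 with 5 of 10 higher. Ddit4, the effector with the largest fold change in PT, differed by 0.08 ± 0.62 (SE, log2).

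**Figure D4:**
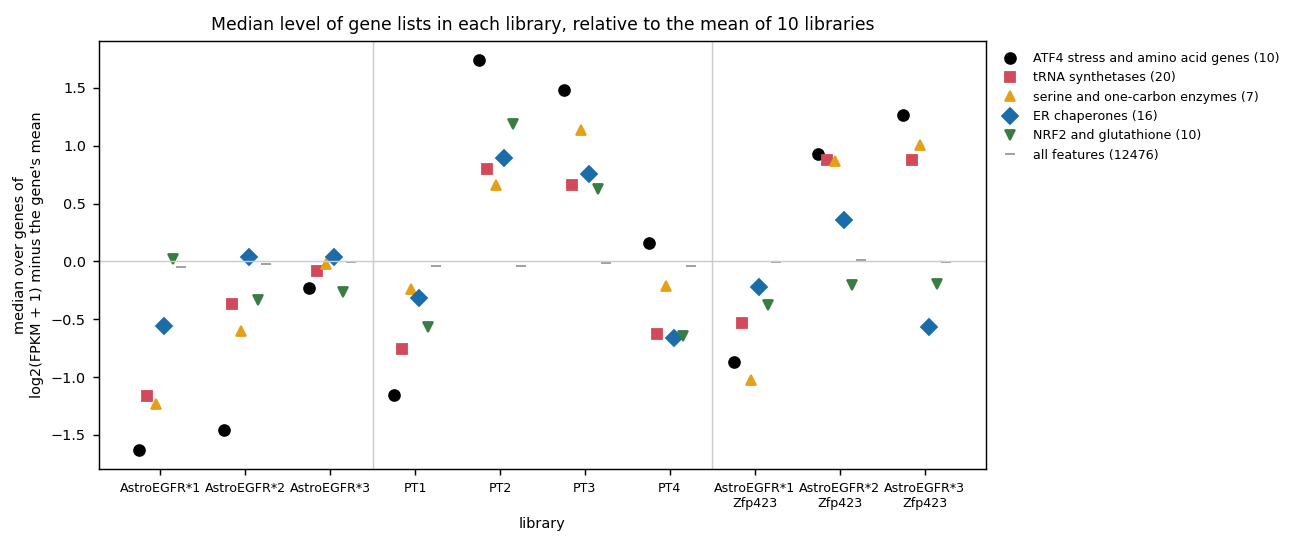
Median over the genes of a list of log2(FPKM + 1) minus the gene's mean over the 10 libraries (vertical axis) in each library (horizontal axis), for the 10 ATF4 genes, 4 pathway lists and all features; the number of genes is in the key and each symbol is 1 list in 1 library. The 10 ATF4 genes run from -1.63 in AstroEGFR*1 to 1.74 in PT2, and all features stay between -0.04 and 0.02.

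Over all 10 libraries the 10 genes had median levels, relative to each gene's own mean, of -1.63, -1.45 and -0.23 in AstroEGFR*1 to AstroEGFR*3, of -1.16, 1.74, 1.48 and 0.16 in PT1 to PT4, and of -0.87, 0.93 and 1.26 in the AstroEGFR* Zfp423 libraries (log2). The lowest library was AstroEGFR*1, AstroEGFR*2 or PT1 for 9 of the 10 genes, as for 26.0% of features. AstroEGFR*3 was the highest of its group in 10 of 10, as in 34.8% of features. That library had a low estimated depth and the high fibroblast markers. The part of either in its level was not tested.

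The members closest to the common course were Slc3a2, Asns and Atf4, with a root mean square distance to it of 0.35, 0.38 and 0.40 (log2, 10 libraries), and the farthest were Trib3 at 0.92 and Slc7a11 at 1.02. Of all other features averaging 1 FPKM or more, the nearest to that course were Sars, seryl-tRNA synthetase, at 0.29, Slc7a5, the leucine transporter that pairs with the Slc3a2 chain, at 0.31, Mthfd2, a mitochondrial folate enzyme, at 0.39, Aldh18a1, the opening enzyme of proline synthesis, at 0.40, and Otub2, a deubiquitinase, at 0.43. The first 4 of these were on the pathway lists above. Slc7a5, for example, was at 47.3, 50.8 and 182 FPKM in the AstroEGFR* libraries, 56.0, 489, 420 and 190 FPKM from PT1 through PT4, and 52.1, 234 and 269 FPKM in the AstroEGFR* Zfp423 libraries. These features were picked for their likeness to the 10 genes, so their closeness is a description.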

How the data were processed

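RNA-seq was done on 10 libraries, and the authors deposited 1 matrix of FPKM values normalised by Cuffnorm. The submitters' processing notes name TopHat 1.3, Cuffnorm and the mm9 build, and the study compared groups with CuffDiff. Labels name a TruSeq RNA kit and the study's methods a ribosomal RNA removal kit and a stranded kit, so the strand setting is unsure here. Read counts were not analysed here. FPKM does not state depth, which was set relative to PT1 from the step between the lowest values of features.

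log2(FPKM + 1) was fitted with limma 3.58.1 (R 4.3.3; trended variance, features averaging 1 FPKM or more, Benjamini-Hochberg adjustment, threshold 0.05), and fold changes on this scale understate those of low genes. PT was set against AstroEGFR* without a block and AstroEGFR* Zfp423 against AstroEGFR* with the batch as a block, each also the other way. The batch comes from the study's design, in which each PT or Zfp423 culture was made from 1 astrocyte batch, by number, except that PT4 was put in batch 1 from a figure of the study and not from its label. The blocked PT fit and the PT4 within-batch values rest on that. Same-batch AstroEGFR* and PT libraries deviated together (correlation 0.40 to 0.53), while AstroEGFR* and Zfp423 libraries did so in batch 1 (0.24) and not in batches 2 (-0.11) and 3 (-0.26). P-values measure the spread between cultures.

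The 10 genes, the pathway lists and the marker lists were chosen with earlier results of these data known. Named besides the 10 by rule are the genes with the highest and the lowest log2 fold change of each pathway list in PT, and other genes are said to be picked after their values were seen. Alternatives were another pseudocount (0.1), no filter, other scalings, no variance trend, other blocks, all libraries in 1 fit and leaving out libraries. On simulated data for PT against AstroEGFR*, 73 of 100 features changed by 3 (log2) and 91 of 100 changed by 6 were called over 12261 features, with 13 false calls. For the Zfp423 comparison these were 41 and 71 over 12366 features, with 2 false calls. The log2 fold changes of the 10 genes were below 3, at 0.67 to 2.80 in PT and 0.21 to 2.70 with Zfp423. The share called at such sizes was not tested. Promoter windows were RefSeq's on GRCm38.p6, matched by symbol, and no coordinate was carried over to mm9.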

Additional observations from a re-analysis of the deposited data

Results flagged for a closer look

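Slc7a1, the arginine and lysine transporter with the largest PT fold change in its list, was at 15.1 FPKM in PT1 and at 42.2, 51.3 and 42.1 FPKM in PT2, PT3 and PT4. PT1 was thus apart from the other 3, with a gap to the nearest of 0.836 of the whole range of log2(FPKM + 1), just over Dixon's 95% limit for 4 samples. The 10 ATF4 genes, the 16 pathway genes with the highest or lowest PT fold change of their list, and Zfp423 were looked at in this way, 27 genes in all, and chance sets apart about 5% of such groups. None of the 10 ATF4 genes passed that limit in PT, although PT1 was the lowest PT library for each of them.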

How the results depend on the processing

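The 10 genes kept a positive PT difference in all of 160 refits (16 alternatives for each gene), with limma adjusted p from 0.0725 to 0.913. The log2 size moved by over 1.5 times for Phgdh (0.67 as tested, 0.25 without AstroEGFR*2, 1.23 without AstroEGFR*3 and 0.30 without PT3) and Slc7a11 (2.80 as tested, 1.70 without PT2). In the Zfp423 comparison 128 of 130 refits were positive, with limma adjusted p from 0.244 to 1. The exceptions were those of Phgdh, at -0.59 (log2) without AstroEGFR*2 and without AstroEGFR*2 Zfp423 (leaving out 1 library gave -0.59 to 0.72). Psat1 moved from 0.55 to 0.05 without either library of batch 2 and to 0.84 without either of batch 3. None of the 10 was called under any alternative.

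The number of features called moved more. For PT it was 152 as tested, 475 with the replicate block, 62 with all 10 libraries in the fit and 61 with PT1 and PT4 averaged. Leaving out 1 library gave 7 to 123, with 7 without AstroEGFR*1, 54 without AstroEGFR*3, 97 without PT1, 70 without PT2 and 58 without PT4. Without both AstroEGFR*3 and PT3, an alternative chosen after seeing the data, it was 8. For Zfp423 it was 0 as tested by limma and 2 (Mir1907 and Snord111) with no replicate block, and leaving out 1 library gave 0 to 60, with 47 without AstroEGFR*2 and 60 without AstroEGFR*2 Zfp423. The cause of these shifts was not tested beyond the number of libraries in each fit. The block changed no call of the 10 genes and, among the pathway genes, brought in Ddit4, Stc2, Vldlr and Shmt2. Stc2 was also called when libraries were rescaled without small non-coding RNA and histone features.

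Of the PT list medians, that of the upstream genes fell from 0.19 to -0.04 and that of the tRNA synthetases from 0.67 to 0.35 without AstroEGFR*1. Without PT2 that of amino acid synthesis was 0.63 (1.01 as tested; 1.53 without AstroEGFR*3 or PT1) and that of the tRNA synthetases 0.42. Without PT3 that of the serine and one-carbon enzymes was 0.48 (0.87 as tested).

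Why the differences of the 10 genes missed the threshold was not tested, and a miss does not show that the levels were alike.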

Other observations

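Among the pathway genes, 4 that differed widely between libraries were picked after their values were seen and are given with no test. Fgf21, a secreted factor known to be induced by ATF4, was at 0.0834, 0.0413 and 4.33 FPKM in AstroEGFR*1 to AstroEGFR*3, at 0.0140, 106, 35.5 and 0.662 FPKM from PT1 through PT4, and at 0.640, 23.7 and 1.09 FPKM in the AstroEGFR* Zfp423 libraries. Gdf15, another secreted stress factor, was at 114 and 49.7 FPKM in PT2 and PT3 and at no more than 5.89 FPKM in any other library, so it was low in the AstroEGFR* Zfp423 libraries 2 and 3 (0.553 and 1.03 FPKM) in which most of the 10 ATF4 genes were high. Cth, which makes cysteine from cystathionine, was highest in those libraries, at 157 and 75.1 FPKM, against 60.1 and 42.2 FPKM in PT2 and PT3 and 1.82 and 3.31 FPKM in PT1 and PT4. Slc7a3, a transporter of arginine, was at 90.2 FPKM in AstroEGFR*2 Zfp423 and at no more than 10.4 FPKM in any other library.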
